A study of Mus musculus with 15 samples.

Results

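Among 15 mouse mammary tumours, the 5 whose arrays had the most transcript of 4 hormone pathway genes (receptor-high) were set against the 5 that had the least (receptor-low). The 4 genes were Esr1, Pgr, Prlr and Foxa1, and the arrays were chosen by the measured mean of these 4. The remaining 5 arrays lay between and stayed out of the class comparison. All tumours were spontaneous mammary tumours of MMTV-PyMT mice aged 20 weeks, in which a mammary tumour virus promoter drives the polyoma middle T oncogene in mammary epithelium, so every tumour of both classes carries that transgene. Of the 15 tumours, 7 came from mice on the Wsh background and 8 from mice on the B6 background. Wsh is the usual name for the Kit W-sh allele, an inversion next to Kit whose adult carriers lack mast cells. The receptor-high class held 1 Wsh and 4 B6 tumours, and the receptor-low class held 4 Wsh tumours and 1 B6 tumour. No label ties a tumour to a numbered mouse, so p-values measure only the spread between these arrays.

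In the mammary gland, Esr1 (the estrogen receptor alpha gene), Pgr (the progesterone receptor gene) and Prlr (the prolactin receptor gene) mark a subset of luminal cells that sense circulating hormones. Foxa1 encodes a pioneer factor that opens chromatin for the estrogen receptor. These cells pass hormone signals on to their neighbours through secreted factors such as amphiregulin (Areg), Wnt4 and RANKL (Tnfsf11), while prolactin acts through the Jak2 kinase and the Stat5 factors. PyMT tumours are known to lose estrogen and progesterone receptor as they advance.

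Total RNA of each tumour was hybridised to a 1-colour Agilent array. Values below are log2 processed signals after subtraction of each array's own 75th percentile, and 1 probe stands for each gene. Among spots that are no controls, those well above background made up a share that ran from 55.7% to 70.8% (median 56.9%) on receptor-high arrays and from 59.2% to 73.4% (median 65.1%) on receptor-low arrays. Krt8, a luminal keratin, was well above background on all 5 receptor-high and all 5 receptor-low arrays, with means of 5.88 ± 0.28 and 6.00 ± 0.14 (SD, n = 5 each). Skeletal muscle transcripts were above the average of all arrays on 5 arrays, of which Wsh replicate 1 and B6 replicate 4 were receptor-high and Wsh replicates 3 and 5 receptor-low. The remaining one, Wsh replicate 4, lay between the classes. Without them no Wsh tumour is left in the receptor-high class. As the fit includes background, class differences then set B6 replicates 7, 3 and 5 against B6 replicate 1 alone. List medians that turn or move by over 1.5 times are also given without the muscle arrays. The arrays fell on 2 slides, with 3 receptor-high and 3 receptor-low arrays on slide 1 and 2 of each on slide 2. On slide 2 the receptor-high arrays were both B6 and the receptor-low arrays both Wsh, so class and background cannot be told apart there.

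The 4 genes that define the classes were read by 60-base probes. Their first 30 bases are shown because every value of the classes rests on these probes, and no letter is capitalised since none is singled out. The probes lie at chr10:5341167-5341226 (Esr1), chr9:8968492-8968551 (Pgr), chr15:10259066-10259125 (Prlr) and chr12:58641764-58641823 (Foxa1) of build mm9. Their place within exons or UTRs was not analysed here.
Esr1: attttccttcacagcgtacaaacaacgctt
Pgr: gtgtataaacacatggcatgtttagttagg
Prlr: caggttaacactacagagtcatgaaggaat
Foxa1: gcatggtttactccttttctttacagccga

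The mean of the 4 genes was 1.15 ± 0.25 in receptor-high and 0.08 ± 0.28 in receptor-low tumours (SD, n = 5 each). It stood at 1.56, 1.22 and 1.08 in B6 replicates 7, 3 and 5, at 0.97 in Wsh replicate 1 and at 0.94 in B6 replicate 4, the 5 receptor-high arrays. The receptor-low arrays had 0.40 in B6 replicate 1 and 0.34, -0.04, -0.13 and -0.20 in Wsh replicates 3, 6, 2 and 5. Values of single arrays are listed in this order throughout. Just outside the classes, Wsh replicate 4 had 0.91, a step of 0.03 below the lowest receptor-high array, and Wsh replicate 7 had 0.43, a step of 0.02 above the highest receptor-low array. The classes therefore cut a continuous range at narrow gaps. Over all arrays the mean was 0.33 ± 0.48 in Wsh (n = 7) and 0.94 ± 0.36 in B6 tumours (SD, n = 8).

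These values chose the arrays and are a description with no test. Foxa1 separated the classes fully. It had 2.56, 2.61, 2.30, 1.81 and 2.17 in receptor-high tumours, against 0.81, 1.80, 0.89, 0.76 and 0.54 in receptor-low tumours. Wsh replicate 3 nearly reached the lowest receptor-high array. Esr1 had 1.27, -0.30, -0.28, 0.71 and 0.73 in receptor-high tumours, against -0.53, 0.03, -0.62, -1.03 and -0.81 in receptor-low tumours. Its classes overlapped, and 3 of 5 receptor-high arrays lay above every receptor-low array. Pgr had -1.29, -0.98, -0.75, -1.46 and -2.40 in receptor-high tumours, against -1.77, -3.32, -3.12, -2.77 and -2.97 in receptor-low tumours. B6 replicate 4 was receptor-high with the lowest Pgr of its class, and B6 replicate 1 was receptor-low with the highest. Prlr had 3.71, 3.55, 3.04, 2.83 and 3.26 in receptor-high tumours, against 3.1, 2.85, 2.69, 2.53 and 2.44 in receptor-low tumours. Here 3 of 5 receptor-high arrays lay above every receptor-low array. In bulk tumour RNA, fewer cells of a type and less RNA per cell cannot be told apart, which holds for every gene below.

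The 4 genes did not rank the tumours alike. Of the 5 receptor-high arrays, 4 were among the 5 highest for Foxa1 and 3 among the 5 highest for each of Esr1, Pgr and Prlr. Leaving Esr1, Pgr or Foxa1 out of the mean changed the class of 4 arrays, and leaving Prlr out changed that of 2. The other kept probes of the receptor genes moved the same way, with receptor-high minus receptor-low differences of 0.37 to 0.89 for 3 further Esr1 probes, 2.45 for a further Pgr probe and 0.64 and 1.21 for 2 further Prlr probes.

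**Figure D1:**
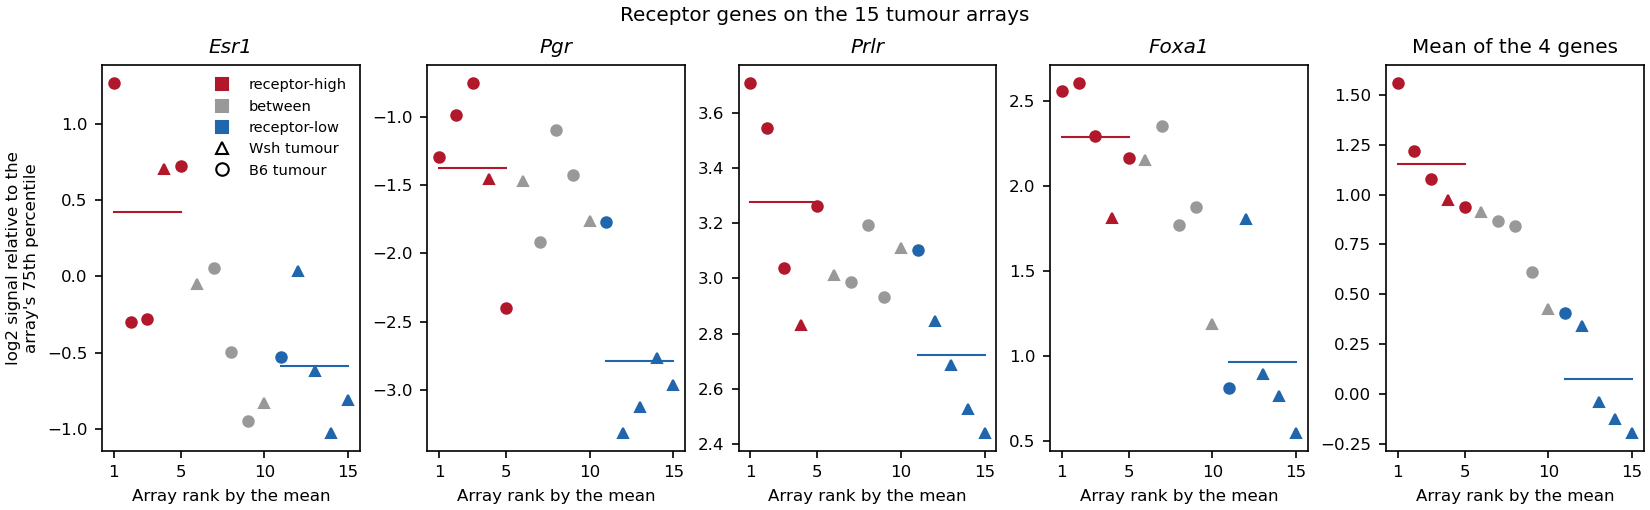
Level of Esr1, Pgr, Prlr, Foxa1 and their mean (vertical axes, log2 signal relative to the array's 75th percentile) on the 15 arrays, ordered from the highest to the lowest mean (horizontal axes). Each point is 1 tumour, bars are class means, and Foxa1 alone of the 4 genes shows no overlap between receptor-high and receptor-low tumours.

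No other gene passed between the classes. With background as a covariate, 0 of 22340 genes (0%) passed a limma adjusted p of 0.05, and the lowest adjusted p was 0.6495. At an unadjusted p under 0.05 there were 462 genes higher (2.07%) and 1025 lower (4.59%) in receptor-high tumours. Of all genes, 41.4% had a difference above 0, and the median difference was -0.06 on the log2 scale. All receptor-high arrays lay above all receptor-low arrays for 129 genes (0.577%) and below them for 262 (1.17%). The split of directions depended on the scaling. With the array median in place of the 75th percentile, the median difference of all genes moved by 0.11 to 0.04, and 781 genes were higher and 402 lower at an unadjusted p under 0.05, so 66% instead of 31.1% of them were higher.

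Since the receptor-high class held 1 Wsh array and the receptor-low class 1 B6 array, each fitted difference is the mean of 2 within-background differences. One sets 4 receptor-high B6 tumours against B6 replicate 1, and the other sets Wsh replicate 1 against 4 receptor-low Wsh tumours. Leaving out B6 replicate 1 keeps only the Wsh difference, and leaving out Wsh replicate 1 keeps only the B6 difference. Without B6 replicate 1 the counts at an unadjusted p under 0.05 were 523 higher and 339 lower, and without Wsh replicate 1 they were 97 and 609. Leaving out B6 replicate 3 gave 804 higher and 1432 lower. Each of these omissions left 0 genes past the adjusted threshold in limma.

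The receptor mean was also used as a continuous measure over all 15 arrays, with background as a covariate. The slope is the log2 change of a gene per log2 unit of the receptor mean. In limma 0 genes passed, and the lowest adjusted p was 0.196. At an unadjusted p under 0.05 there were 1207 positive slopes (5.4%) and 1197 negative slopes (5.36%), and 41.3% of all slopes were above 0. Slopes did not differ detectably between Wsh and B6 tumours for any gene (limma passed 0, and at an unadjusted p under 0.05 the slope was steeper upward in Wsh for 186 genes and in B6 for 91).

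**Figure D2:**
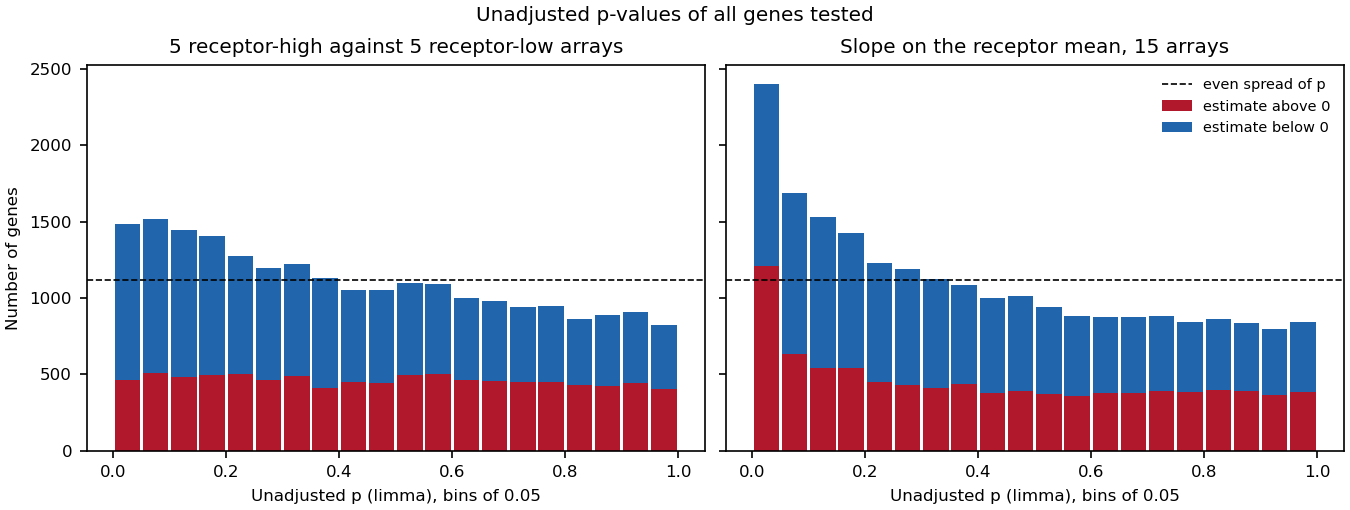
Number of genes (vertical axis) by unadjusted limma p in bins of 0.05 (horizontal axis) for the class comparison on 10 arrays and for the slope on the receptor mean over 15 arrays, split by the sign of the estimate. The first bin holds 462 genes above and 1025 below 0 in the class comparison, against 1207 and 1197 for the slope.

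The genes of smallest p with higher levels in receptor-high tumours were Il18, Cyp2j6, Prnp, Gsta3, Lrmda and Idh1, none of which passed. Il18 encodes an inflammatory cytokine and was read at chr9:50389886-50389942 (mm9). It had -0.12, -0.47, -0.34, 0.40 and -0.31 in receptor-high tumours, against -1.06, -0.84, -0.96, -0.85 and -1.18 in receptor-low tumours. The classes did not overlap, and the fitted difference of 1.06 (SE 0.18, 2.08-fold, limma adjusted p = 0.6495) was made of 0.75 within B6 and 1.36 within Wsh. Gsta3 encodes a glutathione transferase that can also act as a steroid isomerase, and was read at chr1:21255189-21255248 (mm9). It had 1.69, -0.53, 0.11, 1.83 and 1.25 in receptor-high tumours, against -1.82, -1.14, -0.41, -2.08 and -1.72 in receptor-low tumours. B6 replicate 3 lay within the receptor-low range, and the fitted difference was 2.81 (SE 0.59, 7.00-fold, limma adjusted p = 0.6495). Both genes had positive slopes over 15 arrays, of 0.82 (SE 0.18) for Il18 and 2.33 (SE 0.47) for Gsta3. Their limma adjusted p was 0.263 and 0.236. These slopes reuse the receptor-high and receptor-low arrays by which both genes were picked, so they add no separate support.

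Cyp2j6, a cytochrome P450, averaged -2.34 ± 0.32 in receptor-high and -4.05 ± 0.48 in receptor-low tumours (SD, n = 5 each), without overlap. Prnp, the prion protein gene, averaged 2.89 ± 0.43 and 2.10 ± 0.16, and Idh1, cytosolic isocitrate dehydrogenase, averaged -0.20 ± 0.22 and -0.62 ± 0.18, both without overlap (receptor-high first, SD, n = 5 each). Lrmda stands apart. Its level was -1.77, -1.81, -2.21, 1.10 and -2.25 in receptor-high tumours, against -2.89, 0.51, 0.30, 0.07 and 0.39 in receptor-low tumours, so Wsh and B6 arrays form separate clusters. Its fitted difference was 0.83 (SE 0.18, limma adjusted p = 0.6495), while the difference of class means without the covariate was -1.06.

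The genes of smallest p with lower levels included Pabpc6, Rprl2, Tg, Scgb1b7 and Ihh, also without a call. Pabpc6, a poly(A)-binding protein gene, had -5.23, -5.98, -5.15, -6.11 and -4.77 in receptor-high tumours, against -3.55, -4.11, -4.41, -4.64 and -4.22 in receptor-low tumours. It was well above background on 1 of 5 receptor-high and 5 of 5 receptor-low arrays (difference -1.75, SE 0.27, limma adjusted p = 0.6495). Tg, the thyroglobulin gene, averaged -4.13 ± 0.53 in receptor-high and -2.83 ± 0.38 in receptor-low tumours, and Scgb1b7, a secretoglobin gene, averaged -4.04 ± 0.74 and -2.52 ± 0.42 (SD, n = 5 each). Rprl2, an RNase P RNA gene, averaged -2.12 ± 0.23 and -1.43 ± 0.21, again receptor-high first.

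Genes with lower levels at an unadjusted p under 0.05 were dim. Their median level was -2.47, against -0.26 for the genes with higher levels and -0.46 for all genes. Of the lower genes 69.6% were well above background on all 15 arrays, against 91.1% of the higher genes and 83.4% of all. Only 52.7% of the lower genes had a gene symbol, against 84.2% of the higher genes and 69.1% of all. With the share of spots well above background as a covariate, the counts were 364 higher and 798 lower.

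The hormone-sensing luminal list holds further genes that mark or act in these cells. Of its 20 genes 19 were measured and 0 passed in limma, 12 had differences above 0, and the median difference was 0.26, against -0.06 for all genes. Over 15 arrays 14 of 19 slopes were above 0, with a median of 0.28 against -0.05 for all genes. The list median stayed above 0 with quantile normalization (0.35), the array median (0.37), normexp (0.20), the deposited values (0.29) and without the muscle arrays (0.25). It was 0.29 without B6 replicate 1 and 0.13 without Wsh replicate 1. The mean of the list overlapped between the classes, from -0.19 to 0.53 on receptor-high and from -0.46 to 0.49 on receptor-low arrays. Its highest value, 0.88, was in B6 replicate 2, which lay between the classes.

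Tbx3, a T-box factor of mammary development, averaged 0.50 ± 0.91 in receptor-high and -0.33 ± 0.42 in receptor-low tumours (SD, n = 5 each). Its difference was 1.0 within each background, and its slope was 1.11 (SE 0.33, limma adjusted p = 0.347). Stc2, a secreted glycoprotein that responds to estrogen in breast cancer cells, had 0.84, 1.76, 0.85, 0.47 and 0.37 in receptor-high tumours, against 0.06, 0.04, -0.79, 0.43 and -1.37 in receptor-low tumours. Of the receptor-high arrays 4 lay above all receptor-low arrays (difference 0.90, SE 0.46, limma adjusted p = 0.737, slope 1.14, SE 0.30). Cited1, a coactivator of the estrogen receptor, had a difference of 0.82 (SE 0.72) and a slope of 0.99 (SE 0.54). Fgfr2, a fibroblast growth factor receptor gene, was the only list member whose classes did not overlap, at -2.0 ± 0.10 in receptor-high and -2.40 ± 0.26 in receptor-low tumours (SD, n = 5 each), with a fitted difference of 0.30 (SE 0.17). Over all genes 0.577% separated the classes in this direction and 1.17% in the other.

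The remaining members of the list had differences on both sides of 0. Gata3, the luminal transcription factor gene, averaged 5.26 in both classes (SD 0.31 in receptor-high and 0.16 in receptor-low tumours). Spdef, another luminal factor, had a difference of -0.18 (SE 0.31). Ly6a, which encodes Sca-1, averaged 3.13 ± 0.52 in receptor-high and 2.24 ± 0.90 in receptor-low tumours, with -0.13 within B6 and 1.52 within Wsh, and the difference was 0.70 (SE 0.54), against -0.25 without the muscle arrays. Prom1, Tox3, Nkd2, Ptges3 and Esrrg had differences between -0.25 and 0.28. Dio1, a deiodinase gene, had -0.65 (SE 0.35) and was well above background on 2 of 5 receptor-high and 5 of 5 receptor-low arrays.

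Among the secreted signals of hormone-sensing cells, Areg, Tnfsf11 and Calca varied more between tumours than between classes. Areg, an estrogen-induced EGF receptor ligand, had 1.49, -4.18, 0.15, -1.75 and -1.83 in receptor-high tumours, against -0.85, 0.44, -0.11, -2.37 and -1.59 in receptor-low tumours. The lowest and the highest of these values both belong to receptor-high arrays (difference -0.54, SE 1.26). Wnt4 had 0.57, 0.56, 0.53, -0.68 and -0.83 in receptor-high tumours, against -0.35, -0.02, -1.02, -1.72 and -2.0 in receptor-low tumours. The first 3 receptor-high arrays were above every receptor-low array, and its slope was 1.11 (SE 0.46, limma adjusted p = 0.423). Tnfsf11 averaged -4.90 ± 1.21 and -4.30 ± 1.91, and Calca, the calcitonin gene, -3.22 ± 2.61 and -1.66 ± 4.06 (receptor-high first, SD, n = 5 each). Cxcl12, a chemokine gene, had a difference of 0.62 (SE 0.67), with -0.19 within B6, 1.44 within Wsh and -0.36 without the muscle arrays.

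Known estrogen response genes gave no common direction. Of 24 genes 21 were measured, 0 passed in limma and 0 had an unadjusted p under 0.05. Differences were above 0 for 8 of 21, with a median of -0.07 that turned to 0.04 with the array median as the scale and to 0.06 without the muscle arrays. It was -0.01 without Wsh replicate 1. Of the slopes 13 of 21 were above 0 (median 0.06). Greb1, a classical estrogen receptor target, averaged -2.33 ± 0.90 in receptor-high and -2.30 ± 1.41 in receptor-low tumours (SD, n = 5 each), and its difference of -0.02 (SE 0.88) changed sign in 12 of 33 other settings. Igfbp4, an IGF-binding protein gene, had 0.52 (SE 0.33), with -0.01 within B6, 1.05 within Wsh and -0.07 without the muscle arrays.

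Stc2, Cited1, Cxcl12 and Areg, described with the hormone-sensing list, also belong to the estrogen list, at 0.90, 0.82, 0.62 and -0.54. Other estrogen-responsive genes had differences on both sides of 0, without a call. Xbp1, a secretory factor gene, had -0.06 (SE 0.17) and Myb, a proto-oncogene, -0.07 (SE 0.40). Ctsd, the cathepsin D gene, had -0.12 (SE 0.18), Rara, a retinoic acid receptor gene, -0.08 (SE 0.21), Siah2, a ubiquitin ligase gene, 0.12 (SE 0.21) and Nrip1, a receptor corepressor gene, 0.18 (SE 0.28). Ccnd1, the cyclin D1 gene, had -0.19 (SE 0.32), Fkbp4, a receptor co-chaperone gene, -0.18 (SE 0.17), Igf1r -0.15 (SE 0.27) and Gadd45g 0.05 (SE 0.27). Besides Areg, the members farthest below 0 were Agr2, a disulfide isomerase gene, at -1.59 (SE 1.0), Rasd1 at -0.72 (SE 0.36), Celsr2 at -0.44 (SE 0.36) and Mapt at -0.43 (SE 0.28). Agr2 was dim, averaging -4.08 in receptor-high and -3.43 in receptor-low tumours, against a median level of -0.46 for all genes. Cyp26b1, which encodes a retinoic acid hydroxylase, had 0.45 (SE 0.50).

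Progesterone response genes were mostly below 0 in the class comparison. Of 16 genes 15 were measured, 0 passed in limma, and 2 of 15 had differences above 0. The median was -0.39, against 0.09 without the muscle arrays, a set in which 10 of 15 were above 0, and -0.18 without Wsh replicate 1. A count of 1 of 15 had an unadjusted p under 0.05 and a lower level, beside 4.59% of all genes. It was the hedgehog ligand gene Ihh. It had -5.59, -5.13, -5.03, -6.25 and -5.85 in receptor-high tumours, against -4.05, -4.77, -5.03, -4.59 and -5.26 in receptor-low tumours, and was well above background on 1 of 5 and 4 of 5 of these arrays. Its difference was -1.34 (SE 0.25, limma adjusted p = 0.6495), while its slope over 15 arrays was -0.32 (SE 0.47).

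The 2 members above 0 were Wnt4 (0.54) and Tnfsf11 (0.14), which the hormone-sensing list also holds. Further members of the list had values below 0, none of which passed. Per1, a clock gene, had -1.0 (SE 0.60) and Fkbp5, a receptor co-chaperone gene, -0.43 (SE 0.26). Tsc22d3 had -0.19 (SE 0.31), Sgk1, a kinase gene, -0.05 (SE 0.32) and Errfi1, an EGF receptor inhibitor gene, -0.17 (SE 0.29). Cxcl14, a chemokine gene, had -0.56 (SE 0.32), Id4, which encodes an inhibitor of DNA binding, -0.44 (SE 0.80), Adamts18, a matrix protease gene, -0.39 (SE 1.20) and Cyp26a1 -0.80 (SE 1.26). Cyp26a1 was dim, averaging -4.85 in receptor-high and -3.80 in receptor-low tumours. Without the muscle arrays Fkbp5, Tsc22d3, Sgk1, Errfi1 and Cyp26a1 were above 0.

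In the prolactin and Stat5 list all 12 genes were measured and 0 passed in limma or had an unadjusted p under 0.05. Differences were above 0 for 9 of 12 (median 0.16), and without the muscle arrays for 7 of 12 (median 0.02). The median was 0.09 without B6 replicate 1 and 0.01 without Wsh replicate 1. Stat5b had 2.86 ± 0.12 in receptor-high and 2.60 ± 0.38 in receptor-low tumours (SD, n = 5 each), with a difference of 0.32 (SE 0.23) and a slope of 0.34 (SE 0.15, limma adjusted p = 0.452). Stat5a had a difference of 0.24 (SE 0.31) and Jak2 one of 0.19 (SE 0.15). The feedback genes did not share a direction, since Socs2 had -0.58 (SE 0.41), Socs1 0.13 (SE 0.32) and Cish 0.02 (SE 0.31). Elf5, the alveolar factor gene downstream of prolactin, had -0.21 (SE 0.24), and Gjb2, a connexin gene, 0.26 (SE 0.58). Tph1, the serotonin synthesis gene, had 0.54 (SE 1.26), Igf2 0.20 (SE 0.87), Rbpj 0.03 (SE 0.17) and Cdkn1b -0.20 (SE 0.18). Igf2 was dim, averaging -5.48 in receptor-high and -5.35 in receptor-low tumours.

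**Figure D3:**
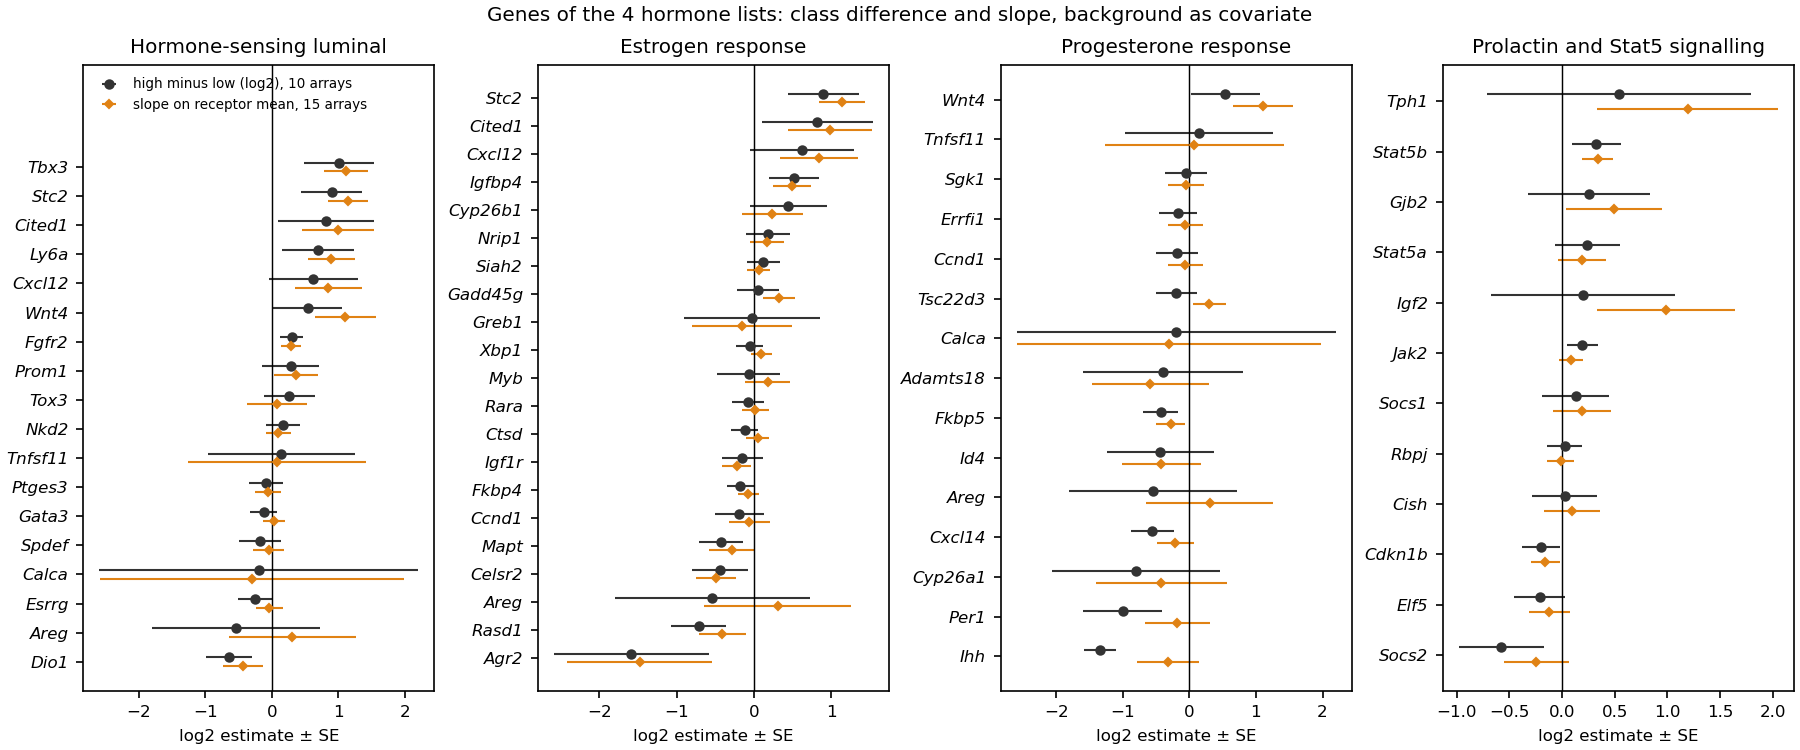
Receptor-high minus receptor-low log2 difference on 10 arrays (circles) and slope on the receptor mean over 15 arrays (diamonds) for measured genes of 4 hormone lists, each with its standard error and with background as a covariate. Tbx3, Stc2 and Cited1 lie to the right of 0 in both, and the estrogen and progesterone response genes spread over both sides of 0.

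Over the 58 measured genes of these 4 lists, 26 had a class difference above 0 and 32 a slope above 0, with medians of -0.06 and 0.05. The slope was recomputed within each background, on each slide, with the slide or the replicate number as a block, with normexp and without the muscle arrays. It stayed above 0 in all of these for 19 genes, among them Tbx3, Stc2, Wnt4, Cited1, Stat5b and Fgfr2, and below 0 in all for 4 (Agr2, Celsr2, Cxcl14 and Fkbp5). These fits reuse the same arrays, and the share of all genes that keep their sign in them is not given here. At an unadjusted p under 0.05 there were 6 positive and 0 negative slopes among the 58, beside 5.4% and 5.36% of all genes, and 0 of 58 passed in limma. The 6 include Stc2, Tbx3, Ly6a and Wnt4.

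Among steroid receptors and cofactors all 23 genes were measured, 0 passed in limma and 8 of 23 differences were above 0 (median -0.15). The median was -0.27 without B6 replicate 1, 0.09 without Wsh replicate 1 and 0.18 without the muscle arrays. Pgrmc2, a membrane-associated progesterone receptor component gene, averaged 0.64 ± 0.24 in receptor-high and 0.18 ± 0.15 in receptor-low tumours (difference 0.53, SE 0.18). Of 15 genes for estrogen synthesis and metabolism 9 were measured, and 7 had differences above 0 (median 0.34, against -0.04 without Wsh replicate 1 and -0.12 without the muscle arrays). Hsd17b12, which encodes a hydroxysteroid dehydrogenase, had 0.56 (SE 0.23), Hsd17b4 0.34 (SE 0.24) and Akr1c18, a progesterone-degrading enzyme gene in mice, 1.59 (SE 1.06, and -0.45 without the muscle arrays). Cyp19a1, the aromatase gene, was not among the measured genes.

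Promoters of the hormone genes were searched on both strands over 300 bases, from 250 before to 50 after the RefSeq start (GRCm38.p6). Of 67 genes (the 4 receptor genes and the 4 lists) 56 were found in the promoter table. The FOXA letters TGTTTAC were in 3 of 56 (5.36%), those of Foxa1, Myb and Prlr, against 3.65% of 32851 promoters. The letters GGTCA and TGACC with 3 bases between them, an estrogen response element, were in 0 of 56, against 0.07% of all. TTC and GAA with 3 bases between them, the letters of a STAT site, were in 8 of 56 (14.3%), among them Esr1, Prlr and Cish, against 8.3%. The promoters of the 2 class-defining genes with FOXA letters are printed, with these letters in capitals (on the reverse strand in Foxa1), at chr12:57546062-57546361 (minus strand) and chr15:10223656-10223955 (plus strand) of GRCm38.p6. A match is a description of letters and not a site of binding.
Foxa1: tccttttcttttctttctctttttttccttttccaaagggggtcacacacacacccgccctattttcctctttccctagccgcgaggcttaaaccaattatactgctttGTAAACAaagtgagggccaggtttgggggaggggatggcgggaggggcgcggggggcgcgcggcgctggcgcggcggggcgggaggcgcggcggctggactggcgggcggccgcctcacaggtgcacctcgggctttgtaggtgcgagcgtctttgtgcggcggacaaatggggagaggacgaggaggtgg
Prlr: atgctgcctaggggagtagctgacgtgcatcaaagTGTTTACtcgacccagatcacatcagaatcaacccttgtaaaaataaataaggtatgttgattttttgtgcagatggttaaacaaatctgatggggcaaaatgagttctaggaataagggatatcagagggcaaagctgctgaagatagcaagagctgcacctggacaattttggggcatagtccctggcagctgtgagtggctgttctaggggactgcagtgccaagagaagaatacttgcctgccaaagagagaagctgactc

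Luminal keratins and junction genes lay below 0, but not on every choice of arrays. All 14 luminal epithelium genes were measured, 0 passed in limma, and 0 of 14 had a difference above 0 (median -0.32). Without B6 replicate 1 the median was -0.71. Without Wsh replicate 1 it was -0.02 with 6 of 14 above 0, and without the muscle arrays it was 0.06 with 8 of 14 above 0. Krt8 had -0.32 (SE 0.17), Spint1, a protease inhibitor gene, -0.50 (SE 0.25), Esrp1, an epithelial splicing factor gene, -0.46 (SE 0.23) and Muc1, a mucin gene, -0.74 (SE 0.39). The mean of the list ran from 2.36 to 3.42 on receptor-high arrays and from 2.97 to 3.12 on receptor-low arrays. The receptor-high arrays thus included both the lowest and the highest of the 10 values, B6 replicate 7 and Wsh replicate 1 being the low pair.

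The other epithelial lists also had medians below 0. Of 16 luminal progenitor genes 3 were above 0 (median -0.27, and -0.50 without B6 replicate 1), with Mgp, the matrix Gla protein gene, at -0.51 (SE 0.24), Sox10 at -0.50 (SE 0.27) and Kit, the stem cell factor receptor gene, at -0.83 (SE 0.47). Kit sits beside the inversion of the Wsh allele, and without the covariate its class means differed by 1.08 in the opposite direction. Of 20 basal and myoepithelial genes 3 were above 0 (median -0.44, and -0.30 without the muscle arrays), with Lamb3, a laminin chain gene, at -0.73 (SE 0.29), Cdh3, the P-cadherin gene, at -0.89 (SE 0.46), Trp63, the basal cell factor gene, at -0.36 (SE 0.17) and Vim, the vimentin gene, at 0.64 (SE 0.21). Milk genes had 6 of 18 above 0 (median -0.24). That median was -0.39 without B6 replicate 1, -0.01 without Wsh replicate 1 and -0.09 without the muscle arrays. Csn1s1, an alpha-casein gene, had 1.0, 0.12, 1.38, -2.29 and -0.99 in receptor-high tumours, against -0.70, 0.76, 5.77, 4.49 and 0.11 in receptor-low tumours. Wsh replicates 6 and 2 were far above the rest for this casein (difference -2.0, SE 1.68, and 1.53 without the muscle arrays). Lalba, the alpha-lactalbumin gene, had -0.50 (SE 0.37) and Csn3, a kappa-casein gene, -0.20 (SE 0.14).

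All 22 proliferation genes were measured, 0 passed in limma, and 0 of 22 differences were above 0 (median -0.29). With the array median as the scale 3 of 22 were above 0 (median -0.19), and without the muscle arrays 5 of 22 were (median -0.25). Mcm2, a replication helicase gene, had 0.50, 0.67, 0.41, -0.13 and 0.25 in receptor-high tumours, against 1.07, 0.11, 0.86, 0.60 and 0.46 in receptor-low tumours. The classes overlapped, and the difference was -0.63 (SE 0.19, limma adjusted p = 0.737). Plk1, a mitotic kinase gene, had -0.55 (SE 0.26), Cdc20, an activator of the anaphase complex, -0.53 (SE 0.29) and Mcm5 -0.35 (SE 0.20). The slopes gave the same median of -0.29 over 15 arrays, but -0.02 on slide 1 and 0.00 on slide 2, and -0.05 without the muscle arrays.

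Notch and Wnt genes had 10 of 22 differences above 0 (median -0.03, and 0.08 with the array median as the scale). Without B6 replicate 1 the median was -0.32, without Wsh replicate 1 it was 0.17 and without the muscle arrays 0.20. Notch1, a receptor gene of luminal cells read at chr2:26319440-26319499 (mm9), had 2.31, 2.04, 2.44, 1.67 and 2.88 in receptor-high tumours, against 3.09, 3.46, 3.13, 2.81 and 3.63 in receptor-low tumours. Only B6 replicate 4 of the receptor-high arrays reached the receptor-low range. The difference was -1.13 (SE 0.29, limma adjusted p = 0.70) and the slope -0.76 (SE 0.31, limma adjusted p = 0.419). Jag1, a Notch ligand gene, had 0.48 (SE 0.26), Notch3 -0.37 (SE 0.27) and Wnt11 0.42 (SE 0.31). Among receptor tyrosine kinases and ligands 8 of 20 were above 0 (median -0.15). That median was -0.09 without B6 replicate 1, 0.09 without Wsh replicate 1 and 0.06 without the muscle arrays. Btc, the betacellulin gene, had 3.60 in Wsh replicate 1 and between -3.56 and -0.84 on the other receptor-high arrays, against -2.95 to -2.08 in receptor-low tumours. Its difference of 3.04 (SE 1.12, limma adjusted p = 0.737) was 0.10 within B6 and 5.98 within Wsh, so it rests on that array. Hgf, which encodes a growth factor of stromal cells, had 0.80 (SE 0.46).

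Stromal and adipose transcripts varied widely within the receptor-high class. Of 15 fibroblast and matrix genes 15 had differences above 0 (median 0.36), of 12 endothelial genes 11 (median 0.35) and of 14 adipocyte genes 12 (median 1.33), with 0 passing in limma. Fap, a fibroblast protease gene, had 1.01 (SE 0.69), Dcn, the decorin gene, 0.70 (SE 0.57), Fbln1, a matrix protein gene, 0.64 (SE 0.38), and Cd36, the fatty acid transporter gene, 1.87 (SE 1.52). Without B6 replicate 1 these medians were 0.83, 0.85 and 2.11. Without Wsh replicate 1 they were -0.01, -0.23 and 0.20, and without the muscle arrays -0.36, -0.31 and -0.33. The adipocyte mean was 4.33, -2.0, 0.66, 4.05 and 3.47 on receptor-high arrays, against 1.49, 2.44, 2.84, 1.39 and 1.20 on receptor-low arrays. Of the receptor-high tumours 3 lay above and 2 below every receptor-low tumour. The skeletal muscle mean ran from -4.32 to 1.82 on receptor-high and from -4.34 to 4.19 on receptor-low arrays, and its list median was 1.85 with the background covariate and -0.28 without it. The muscle median was 2.63 without B6 replicate 1, 0.89 without Wsh replicate 1 and -0.22 without the muscle arrays. With the adipocyte and muscle means as covariates 0 genes passed, and the hormone-sensing list median was 0.25. The part of adipose and muscle content in single genes was not tested.

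Leukocyte lists also had medians above 0. Differences were above 0 for 13 of 16 macrophage genes (median 0.20), 12 of 14 dendritic cell genes (0.41), 6 of 7 neutrophil genes (1.0), 14 of 22 T and NK cell genes (0.18), 9 of 9 B and plasma cell genes (0.53) and 4 of 7 mast cell genes (0.34), with 0 passing in limma. Without Wsh replicate 1 the medians were -0.11 for macrophages, -0.27 for dendritic cells, 0.10 for neutrophils, -0.73 for T and NK cells and 0.13 for mast cells. Without B6 replicate 1 they were 0.66 for macrophages, 1.05 for dendritic cells, 2.43 for neutrophils and 0.96 for T and NK cells. Without the muscle arrays they were -0.32 for macrophages, -0.51 for dendritic cells, -0.04 for neutrophils, -0.80 for T and NK cells, -2.86 for B and plasma cells and -0.22 for mast cells. The B and plasma cell mean ran from -5.33 to 0.76 on receptor-high and from -5.78 to -0.24 on receptor-low arrays. Its list median was 3.75 without B6 replicate 1 and -2.43 without Wsh replicate 1, so either array sets its direction. Cd163, a scavenger receptor gene of macrophages, had 1.95 (SE 0.90), with 0.28 within B6, 3.61 within Wsh and -0.10 without the muscle arrays. Zbtb46, a dendritic cell factor gene, had 0.89 (SE 0.26, limma adjusted p = 0.737), with 0.75 within B6 and 1.03 within Wsh. Interferon response genes were above 0 for 2 of 15 (median -0.43), and 14 of 15 slopes over 15 arrays were above 0 (median 0.18). The slope direction turned on slide 1 (median -0.38, 2 of 15 above 0) and without the muscle arrays (-0.08, 5 of 15).

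**Figure D4:**
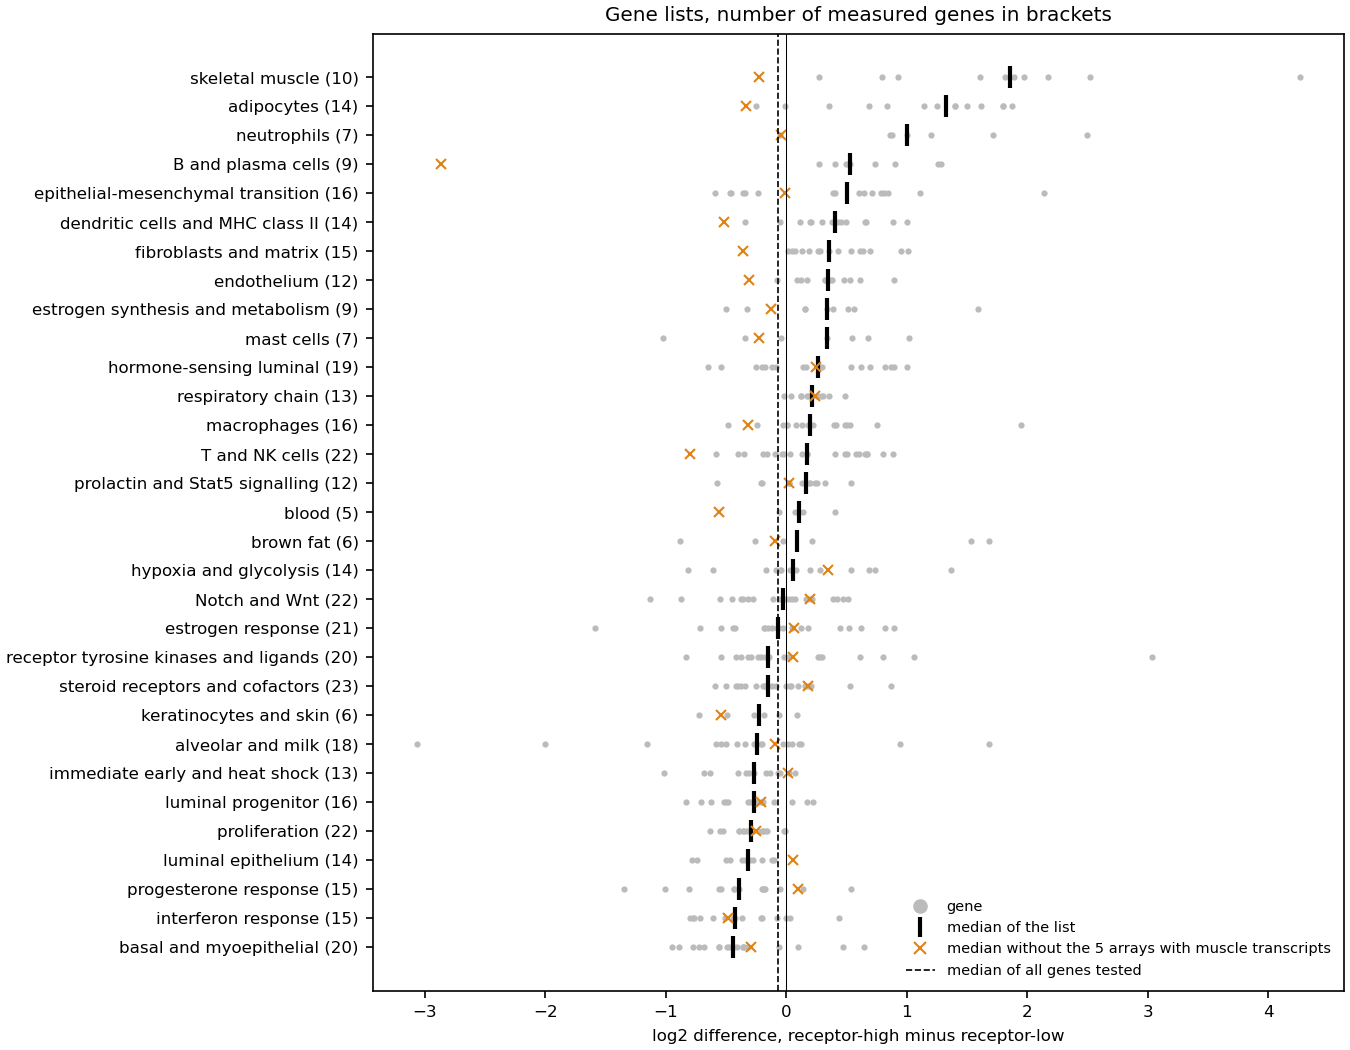
Receptor-high minus receptor-low log2 difference (horizontal axis) of every measured gene in 31 lists (grey points), with list medians (bars), medians without the 5 arrays with muscle transcripts (crosses) and the median of all genes (dashed line). The crosses rest on B6 replicates 7, 3 and 5 against B6 replicate 1 alone. There the hormone-sensing luminal and respiratory chain medians of 0.26 and 0.21 are 0.25 and 0.24, whereas adipocyte, muscle and leukocyte medians cross 0. Medians below 0 also keep their sign in other lists. Among them, proliferation, luminal progenitor and interferon response move from -0.29, -0.27 and -0.43 to -0.25, -0.21 and -0.48.

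Mitochondrial genes had a list median above 0 without B6 replicate 1 and without Wsh replicate 1, though each such median rests on the other array. All 13 respiratory chain genes were measured, 12 had differences above 0 (median 0.21) and 13 had slopes above 0 (median 0.19), with 0 passing in limma. The list median was 0.14 without B6 replicate 1, 0.24 without Wsh replicate 1 and 0.24 without the muscle arrays. Sdha, a succinate dehydrogenase subunit gene, averaged 4.07 ± 0.25 in receptor-high and 3.70 ± 0.24 in receptor-low tumours (difference 0.49, SE 0.20), and Ndufb5, a complex I subunit gene, averaged 4.35 ± 0.10 and 4.07 ± 0.15 (difference 0.29, SE 0.14). Immediate early and heat shock genes had 2 of 13 above 0 (median -0.26, against -0.68 without B6 replicate 1 and -0.01 without Wsh replicate 1, and 0.02 without the muscle arrays). Jun, an AP-1 factor gene, had 2.79, 3.36, 3.30, 2.73 and 3.15 in receptor-high tumours, against 3.54, 3.72, 3.46, 3.75 and 3.53 in receptor-low tumours, without overlap (difference -0.63, SE 0.19, limma adjusted p = 0.737). Hypoxia and glycolysis genes had 8 of 14 above 0 (median 0.05, against -0.04 without B6 replicate 1 and 0.31 without Wsh replicate 1, and 0.35 without the muscle arrays), with Bnip3, a mitophagy gene, at 1.37 (SE 0.60). The 6 below 0 included Egln3, at -0.60 (SE 0.38). The slopes of Bnip3 and Egln3 were 1.23 (SE 0.41) and -0.90 (SE 0.24).

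**Figure D5:**
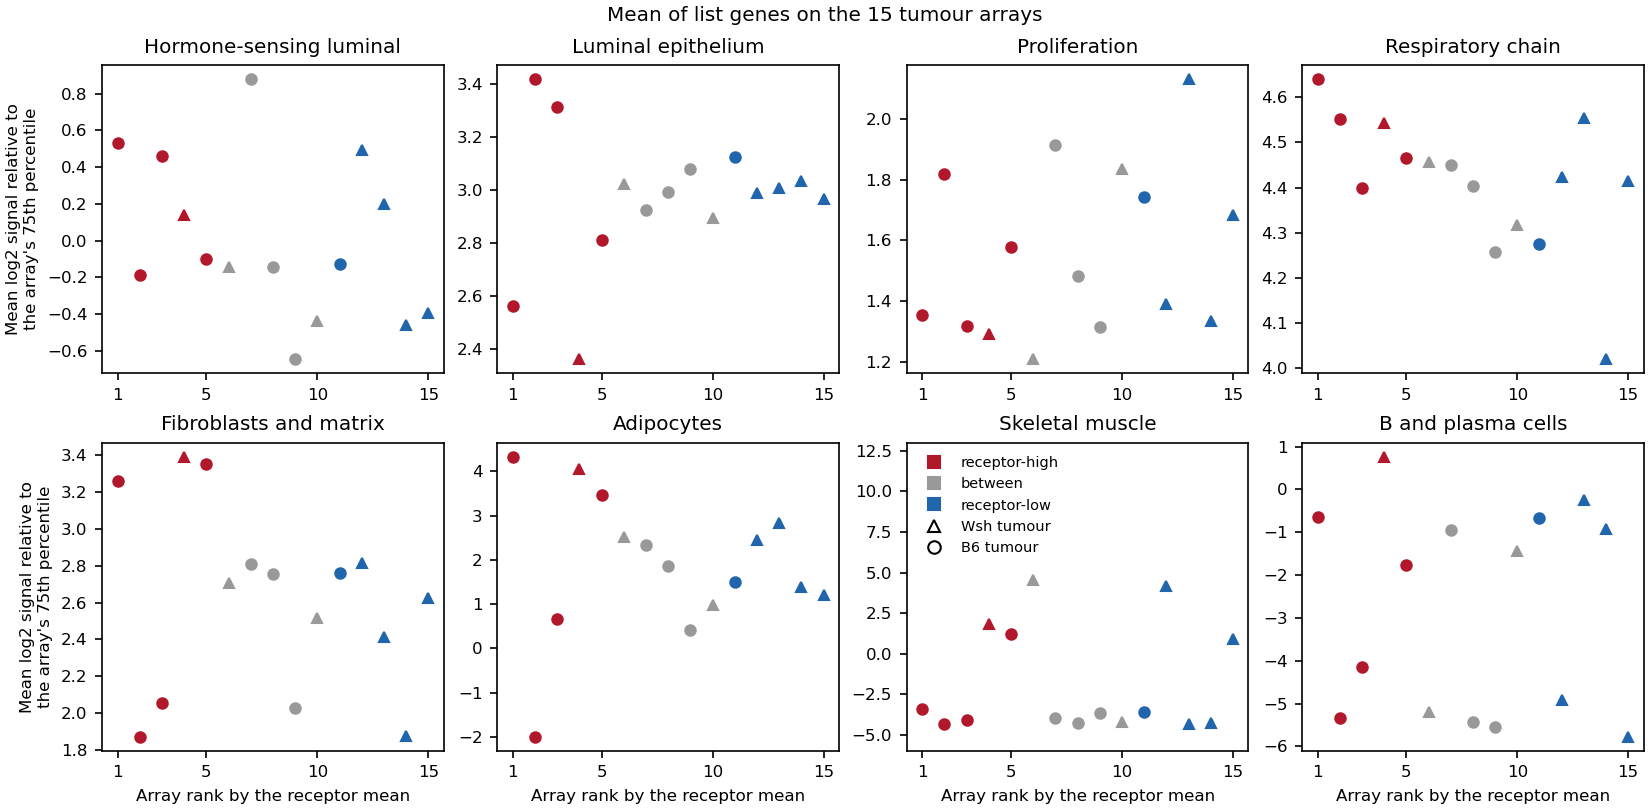
Mean log2 signal of 8 gene lists relative to the array's 75th percentile (vertical axes) on the 15 arrays, ordered from the highest to the lowest receptor mean (horizontal axes), 1 point a tumour. The adipocyte mean spans -2.0 to 4.33 within the receptor-high class, and skeletal muscle transcripts are high on 5 arrays of both classes and between them.

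Over 15 arrays the smallest p for a slope belonged to Tlcd4, a gene of a TLC-domain membrane protein, named here, like Cib2 and Slc12a2, after its values were seen. The slope of Tlcd4 was 0.96 (SE 0.14, limma adjusted p = 0.196), with 0.93 in B6 and 0.99 in Wsh tumours. Tlcd4 levels were 1.69, 0.73, 1.06, 0.49 and 1.09 in receptor-high tumours, against 0.31, 0.05, -0.30, -0.54 and -0.87 in receptor-low tumours. The classes did not overlap, which held in this direction for 0.577% of all genes. They are the ends of the receptor mean by which Tlcd4 was picked, so this adds no separate support. In the class comparison Tlcd4 had a limma adjusted p of 0.737. Cib2, a calcium-binding protein gene, followed with a slope of 0.87 (SE 0.14, limma adjusted p = 0.196), and Slc12a2, the sodium-potassium-chloride cotransporter gene, with 0.84 (SE 0.15, limma adjusted p = 0.222). None of the slopes passed.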

How the data were processed

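Each sample is 1 tumour on 1 one-colour array. The deposited intensity values are processed signals of Agilent Feature Extraction 10.7.3.1, background-corrected and detrended and not scaled between arrays, per the file headers. The authors' deposited log2 table served as an alternative, and its normalization is not given in the sources used here. Probe coordinates are those of mm9, per the file headers.

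Of 59305 non-control spots, spots of 1 probe were averaged (56605 probes), log2 signals were set relative to the array's 75th percentile, and 34349 probes were kept that 7 or more of the 15 arrays read well above background. Each gene was read by its brightest kept probe. The 4 receptor genes were left out, which left 22340 genes. limma 3.58.1 (R 4.3.3) fitted class and background on 10 arrays, and the receptor mean and background on 15, with Benjamini-Hochberg adjustment over all genes. The limma class fit was run on simulated arrays with known differences. That run did not cover array choice, scaling, probe choice or the slope. The number of arrays limits the precision.

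Genes named are the 6 of smallest p in each direction, all measured members of the 4 hormone lists, and up to 4 members of each other list with the largest absolute moderated t; a few of these are not reported here. The classes and lists were chosen with earlier results of these data known. Alternatives covered background correction, scaling, filters, blocks, covariates, array choice and each array left out. Correlations of same-numbered Wsh and B6 arrays ran from -0.24 to 0.21, so the replicate numbers were not taken as pairs. Promoter sequences came from RefSeq (GRCm38.p6).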

Additional observations from a re-analysis of the deposited data

Results flagged for a closer look

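In 6 of 138 groups of 5 arrays, over 69 genes, 1 array stood apart from the other 4. Chance alone gives about 5% of groups. Lrmda was 1.10 in Wsh replicate 1, against -2.25 to -1.77 on the other receptor-high arrays. In B6 replicate 1 it was -2.89, against 0.07 to 0.51 on the other receptor-low arrays. Each of these arrays is the only one of its background in its class, and Lrmda levels of Wsh and B6 arrays formed separate clusters. Fgfr2 in B6 replicate 7 was -1.83, against -2.06 to -2.01 on the other receptor-high arrays. Igf1r in Wsh replicate 2 was -0.41, against -1.53 to -1.43 on the other receptor-low arrays. Cyp26b1 in the same array was -0.46, against -2.21 to -1.84 there. Cxcl14 in B6 replicate 3 was 3.22, against 2.24 to 2.45 on the other receptor-high arrays.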

How the results depend on the processing

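In 32 of 33 other settings 0 genes passed in limma in either direction. With the luminal epithelium mean as a covariate 0 genes were higher and 1 was lower, Tmem267, named after its values were seen (-2.56, SE 0.19, limma adjusted p = 0.0133, against -0.95, SE 0.91, limma adjusted p = 0.814). The cause was not tested. Leaving out 1 array gave 0 to 0 called genes. With the replicate number as a block, 0 genes passed, the lowest limma adjusted p was 0.414, and the block correlation was 0.107. At an unadjusted p under 0.05, counts without 1 array ran from 97 to 804 higher and from 339 to 1432 lower. Array weights gave 1304 higher and 2400 lower, no filter gave 804 and 1918, and choosing the arrays without Foxa1 gave 910 and 614. Of 172 named genes 75 kept their sign in every setting. Part of these genes were named for a small p or a large moderated t in these data, and most settings reuse the same arrays. The share of all genes that keep their sign is not given here, so the count is no separate support. Slide 2 alone could not be fitted, since class and background coincide there. Settings added after seeing the data were those without the muscle arrays and with the share of spots well above background as a covariate, and the slope under each block, on each slide, with normexp and without the muscle arrays. Genes not well above background limit what the lower values can show.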
